A study of Mus musculus with 10 samples.

Results

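Long non-coding RNA (lncRNA) genes that mouse colon organoids transcribe at an appreciable level number 172 in the data described here, and in limma without pairs none of them (0% of all genes tested) passed between organoids given the PPARα agonist WY-14643 and organoids given its vehicle. A fit with voom on recovered reads and libraries paired by number, added after these results were seen, called 5 of them (1.76% of all genes tested). Members were chosen by 3 criteria: the lncRNA biotype of the deposited annotation, a mean of at least 3 FPKM over all 10 libraries, and a place outside chromosomes X and Y. FPKM is the number of sequenced fragments per kilobase of a gene's length, scaled per library, so levels can be set side by side between genes. The table holds 56748 genes, 10532 of them lncRNA genes outside X and Y, of which 5235 were listed at 0 in every library and 1009 reached a mean of 0.5 FPKM. A further 5 lncRNA genes at or above 3 FPKM lie on X or Y and were left out. Just inside the threshold stood A730017L22Rik with a mean of 3.04 FPKM, ENSMUSG00000121225 with 3.03 FPKM and Gm4673 with 3.03 FPKM. Just outside it stood ENSMUSG00000120951 with 2.98 FPKM, Gm16136 with 2.98 FPKM and ENSMUSG00000120514 with 2.96 FPKM. Because the mean level chose the members, their abundance is a description; the difference between treatments was not used.

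Long non-coding RNAs are transcripts that resemble messenger RNAs in being capped and, mostly, spliced and polyadenylated, but that lack a long conserved reading frame. Some act as RNAs: Malat1 gathers at nuclear speckles, Neat1 is the scaffold of paraspeckles, and Norad binds Pumilio proteins in the cytoplasm. Others are carriers: introns of the snoRNA host genes (Snhg genes, Gas5, Zfas1) release small nucleolar RNAs, which guide chemical modification of ribosomal RNA, and the pri-miRNA genes release microRNA hairpins. Others still are known mainly from their position beside or opposite a coding gene. In the mouse liver, PPARα agonists are known to induce the lncRNA gene Gm15441, which lies opposite Txnip.

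Colon organoids, three-dimensional cultures of the colon's epithelium, were treated for 2 days, from 3 days after passaging, with WY-14643 at 100 µM (5 libraries, replicates 6 to 10) or with vehicle alone (5 libraries, replicates 1 to 5). WY-14643 is a synthetic ligand of PPARα, the nuclear receptor that controls fatty acid oxidation. The labels give no strain, genotype, age or sex, and do not say whether replicates came from separate animals or cultures, so a p-value here reflects only how these samples spread, which may be technical. RNA was captured by its poly(A) tail. Recovered read totals were 17813562 ± 2520570 in WY-14643 libraries and 20767442 ± 5187374 in vehicle libraries (mean ± SD, n = 5 each), with a range of 15618244 to 29271304. The 14 colon epithelium markers summed to between 3879 and 7757 FPKM in WY-14643 libraries and between 4123 and 7054 FPKM in vehicle libraries. Markers of other cells were near 0: with WY-14643 and with vehicle, the highest sums were 0.382 and 0.571 FPKM for 10 mesenchyme markers, 1.32 and 0.922 FPKM for 8 immune markers, 0.607 and 0.777 FPKM for 5 endothelial markers, and 0.543 and 0.469 FPKM for 6 markers of neurons and glia. Among these, Dcn, Lum, Thy1, Adgre1, Cd3e, Emcn, Elavl4 and Sox10 were listed at 0 in every library. Libraries of the 2 groups went together in numerical order (replicate 6 with 1, 7 with 2, 8 with 3, 9 with 4 and 10 with 5), although no label pairs them. Across the 172 members, deviations from the group means of libraries so matched had Pearson correlations of 0.487 to 0.852, and the highest correlation of unmatched libraries was 0.217. These correlations run across genes, which are not independent replicates, and they serve only to describe the libraries.

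The lncRNA genes took little of each library, and a few of them took most of that. Members held 0.948 ± 0.209% of the reads in WY-14643 libraries and 0.939 ± 0.142% in vehicle libraries (SD, n = 5 each). The 2 most abundant, Gm42047 and Malat1, held 36.7% of the members' reads, and the first 15 held 76.4%. By mean level, 15 members lay above 30 FPKM, 29 between 10 and 30 FPKM and 128 below 10 FPKM. None was at 0 in any library. The median member had a mean of 184 reads per library and the shallowest 13.4 reads, so counting error is largest in the short, low members. In such bulk samples fewer cells of a type and less RNA per cell cannot be told apart.

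The most abundant member was Gm42047 (ENSMUSG00000110631), chromosome 8, 122559986 to 122567917, plus strand in build mm39, a gene that overlaps no coding gene in the table. Its level was 137, 365, 315, 273 and 290.02 FPKM in WY-14643 replicates 6 to 10, against 135, 383, 298, 291 and 301 FPKM in vehicle replicates 1 to 5. Replicates 6 and 1, the lowest of their groups, stood far below the others, and the groups overlapped throughout. A GENCODE transcript of Gm42047 matches one of Gm48362, which averaged 0.0598 FPKM, at 98.4% over 3209 bases. Reads could be split between the copies. How multiply matching reads were handled is not given, and the effect on the level of Gm42047 was not tested. Malat1 (ENSMUSG00000092341), chromosome 19, 5845717 to 5852704, minus strand, had 292, 257, 184, 181 and 353 FPKM with WY-14643 and 349.7, 307, 190.2, 174 and 324 FPKM with vehicle, in numerical order of the replicates. Gm42047 exceeded Malat1 in 6 of 10 libraries, so the order of the leading pair of genes is not settled by these samples, whereas Malat1 exceeded the third gene in 10 of 10. All these levels are of RNA captured by its poly(A) tail. How fully the RNA of each gene was captured, that of Malat1 and Neat1 included, was not tested, so the order is that of captured RNA.

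Several of the next most abundant genes have no function known from their name. ENSMUSG00000120992 (chromosome 17, 35215654 to 35219393, minus strand) starts 570 bases from Vars, which encodes valyl-tRNA synthetase and is read from the other strand; it averaged 137 FPKM, with 257, 72.5, 113, 88.3 and 93.02 FPKM with WY-14643 and 293, 70.7, 153, 108 and 116 FPKM with vehicle. Replicates 6 and 1 held the top value of each group. Gm30414 (chromosome 1, 7568192 to 7588373, plus strand) averaged 114 FPKM, with 60.2, 87.4, 78.7, 207 and 89.01 FPKM with WY-14643 and 77.98, 108, 99.001, 241 and 88.4 FPKM with vehicle, and there replicates 9 and 4 stood above all others. ENSMUSG00000120144 averaged 98.2 FPKM and begins 821 bases after the end of Arf6, on the same strand. ENSMUSG00000121141 averaged 52.3 FPKM and begins 287 bases after Cmip, also on the same strand. Arf6 is a small GTPase of membrane traffic; it averaged 129 FPKM, and Cmip averaged 15.8 FPKM. In all, 12 members start within 2000 bases after a coding gene of the same strand, and whether they are separate transcripts or extensions of that gene was not tested. Gm10076 averaged 30.8 FPKM, but its transcript is 99.5% identical to that of Rpl41, a ribosomal protein gene at 320 FPKM, over 383 of 384 bases, so its reads cannot be told from those of Rpl41. Neighbours in the order of the first 15 exchanged places in at least 2 libraries at every step except that from Malat1 to ENSMUSG00000120992.

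**Figure D1:**
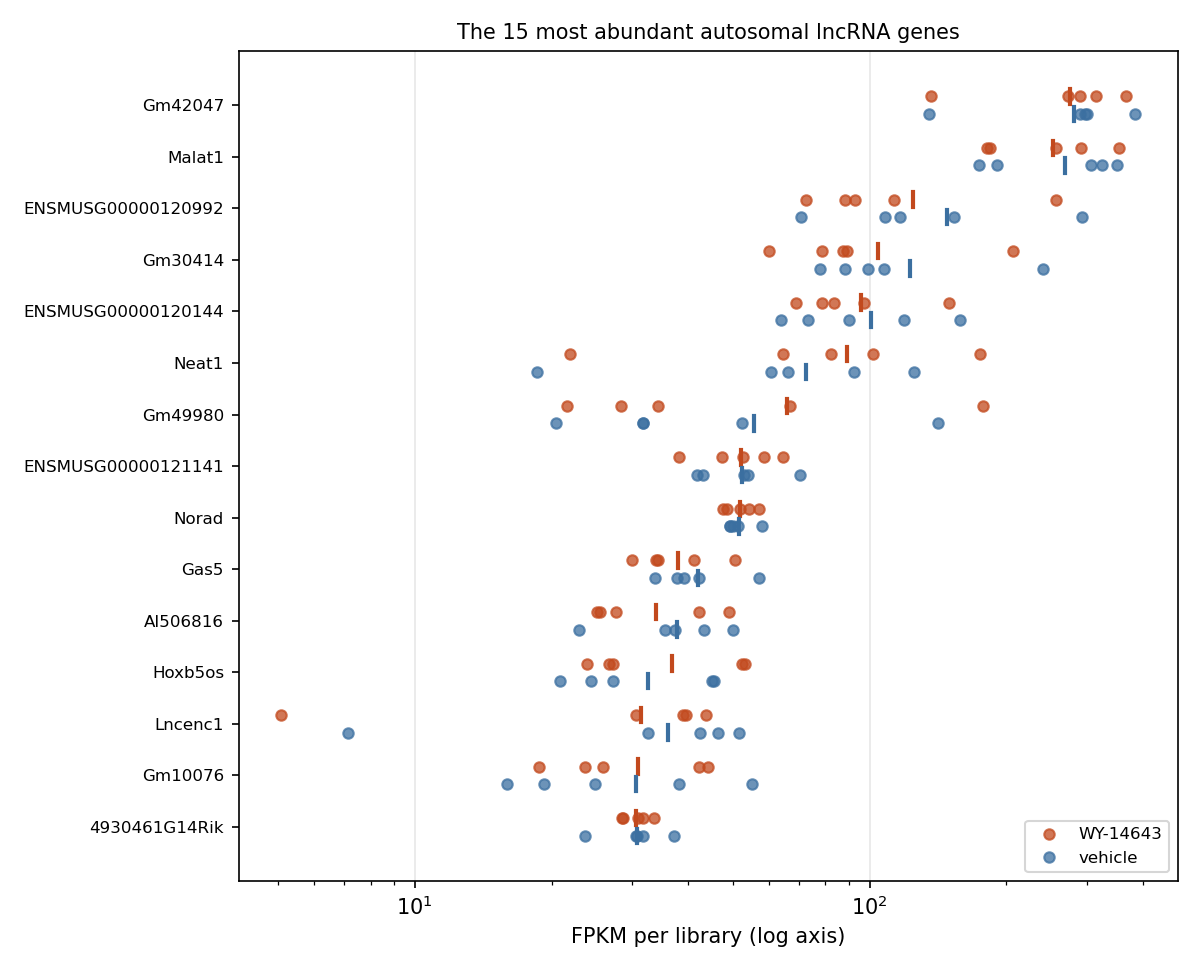
FPKM per library (log axis) of the 15 most abundant autosomal lncRNA genes, ordered by mean level; points are libraries, vertical ticks are group means, with WY-14643 above vehicle in each row. The WY-14643 and vehicle points overlap in every row, and Lncenc1 and Neat1 spread far more widely than Norad or 4930461G14Rik.

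Among lncRNAs with a known nuclear or cytoplasmic role, Neat1 varied most and Norad least. Neat1 (ENSMUSG00000092274; chromosome 19, 5874736 to 5895898, minus strand) had 21.99, 102, 82.3, 64.5 and 175 FPKM in WY-14643 replicates 6 to 10, against 18.6, 92.5, 66.1, 60.6 and 125 FPKM in vehicle replicates 1 to 5. Values ran low in replicates 6 and 1 and high in replicates 10 and 5, and within each numbered pair the WY-14643 library was the higher. The group means were 89.1 ± 56.3 FPKM with WY-14643 and 72.7 ± 39.7 FPKM with vehicle (SD, n = 5 each), a log2 fold change of 0.25 ± 0.58 (SE) on the log2(FPKM + 1) scale, which fold changes here use unless voom is named, with an adjusted p of 1.0 in limma without pairs. With pairs as a block the value was 0.25 ± 0.063 in limma (adjusted p = 0.208), and voom on recovered reads with pairs gave 0.26 ± 0.054 and called Neat1 higher (adjusted p = 0.0210). These are values of the whole gene, scaled to a length of 21163 bases. Forms of the Neat1 transcript were not told apart, so they are not a measure of the paraspeckle scaffold alone. Norad (chromosome 2, 156229980 to 156234921, minus strand) had 51.9, 54.5, 48.5, 47.6 and 57.3 FPKM with WY-14643 and 50.04, 51.5, 49.3, 49.5 and 58.1 FPKM with vehicle, with group means of 51.9 ± 4.05 FPKM with WY-14643 and 51.7 ± 3.71 FPKM with vehicle. Its 10 libraries all lay within 47.6 and 58.1 FPKM. A shorter lncRNA gene, Gm7292, shares 99.2% identity with Norad over 2537 bases, at 0.220 FPKM. Malat1 averaged 253 ± 73.3 FPKM with WY-14643 and 269 ± 80.8 FPKM with vehicle, a log2 fold change of -0.077 ± 0.25. Oip5os1 averaged 16.8 ± 3.78 FPKM with WY-14643 and 15.7 ± 3.12 FPKM with vehicle, and Peg13, an imprinted gene, averaged 3.35 ± 0.790 FPKM with WY-14643 and 3.39 ± 1.11 FPKM with vehicle. Tug1 averaged 15.2 FPKM but carries a protein-coding biotype in this table, and so is no member. Of the 14 listed genes with a nuclear or other role that were found in the table, 9 were tested, Norad and Tug1 among them. Their median log2 fold change was 0.014, but the list mixes roles and is no single class. In limma 0 passed without pairs (0% of all genes tested) or with pairs (0.316%), while voom with pairs (1.76%) called Neat1. Meg3 was listed at 0 in every library.

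The numbered pairs, rather than the treatment, went with most of the variation. Of each member's sum of squares on the log2 scale, a median of 84.0% lay between pairs, 2.6% between treatments and 10.2% in the remainder; the 8480 autosomal coding genes at 3 FPKM or more had 86.7%, 2.0% and 8.4%. The lncRNA genes differed from the coding genes in how far they spread. The median SD within groups was 0.383 for members and 0.213 for coding genes (log2 scale). It was larger for members at each level, at 0.365 against 0.220 between 3 and 5 FPKM, 0.379 against 0.207 between 5 and 10, 0.380 against 0.207 between 10 and 30, and 0.527 against 0.233 from 30 upwards. Genes of like FPKM were not matched on reads: the median was 184 reads per library for members and 1084 for coding genes. How far counting error adds to the wider spread was not tested. The mean of the highest pair was at least 2-fold that of the lowest in 95 members (55.2%) and in 17.2% of coding genes, with medians of 2.08-fold and 1.46-fold. These shares are descriptions with no test, since genes share the same 10 libraries.

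**Figure D2:**
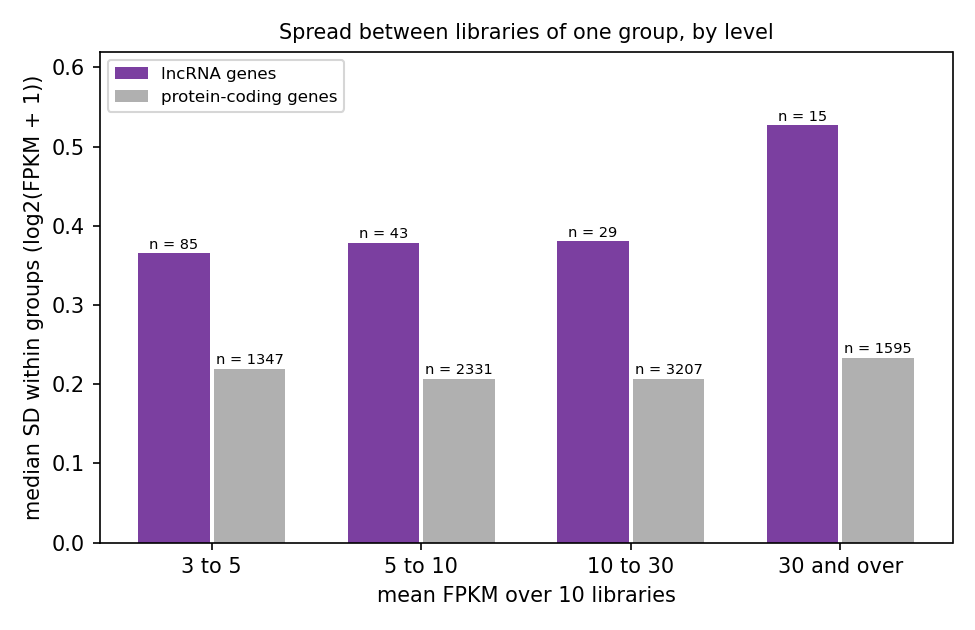
Median SD of log2(FPKM + 1) within groups for the 172 lncRNA genes and for 8480 autosomal protein-coding genes, in 4 ranges of mean FPKM; n gives the genes behind each bar. The lncRNA bar is the taller in each range, from 0.365 against 0.220 at the lowest level to 0.527 against 0.233 at the highest. Genes are grouped by FPKM and are not matched on read count.

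Differences of at least 5-fold between the highest and the lowest pair were found in 11 members, all picked with these values in view. Lncenc1, a gene described in mouse embryonic stem cells, had 5.09, 30.6, 38.9, 39.4 and 43.7 FPKM in WY-14643 replicates 6 to 10, against 7.15, 32.6, 42.3, 46.5 and 51.7 FPKM in vehicle replicates 1 to 5. It was low in replicates 6 and 1 only, a 7.79-fold difference between the extreme pairs. Wincr1, named as a Wnt-induced non-coding RNA, had 34.02, 14.2, 16.4, 27.1 and 6.98 FPKM with WY-14643 and 44.7, 18.6, 18.4, 25.8 and 6.25 FPKM with vehicle; here replicates 6 and 1 were the highest and replicates 10 and 5 the lowest. Gm49980 (chromosome 18, 30400302 to 30405186, plus strand) had 28.5, 66.8, 34.3, 21.6 and 178 FPKM with WY-14643 and 31.9, 52.3, 31.8, 20.4 and 142 FPKM with vehicle, highest in replicates 10 and 5 by a wide margin. The widest were Gm26641 at 19.97-fold and 4930447F24Rik at 18.97-fold, followed by Gm28512 at 14.9-fold. 4930447F24Rik had 2.14, 23.5, 6.62, 10.1 and 2.01 FPKM with WY-14643 and 1.71, 35.3, 8.67, 12.6 and 1.09 FPKM with vehicle, highest in replicates 7 and 2. The remaining 5 were Gm41386 at 7.90-fold, Gm28119 at 6.75-fold, Gm40975 at 6.20-fold, 9530082P21Rik at 5.85-fold and Neat1 at 7.41-fold. The extremes were spread over the pairs: replicates 6 and 1 were the lowest pair for 64 members and the highest for 26, and replicates 7 and 2 were the highest for 61. Replicates 8 and 3 were the highest pair for only 2. In 3 members the share of treatment exceeded that of the pairs: Gm17066, 4930557K07Rik and Gm20457.

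**Figure D3:**
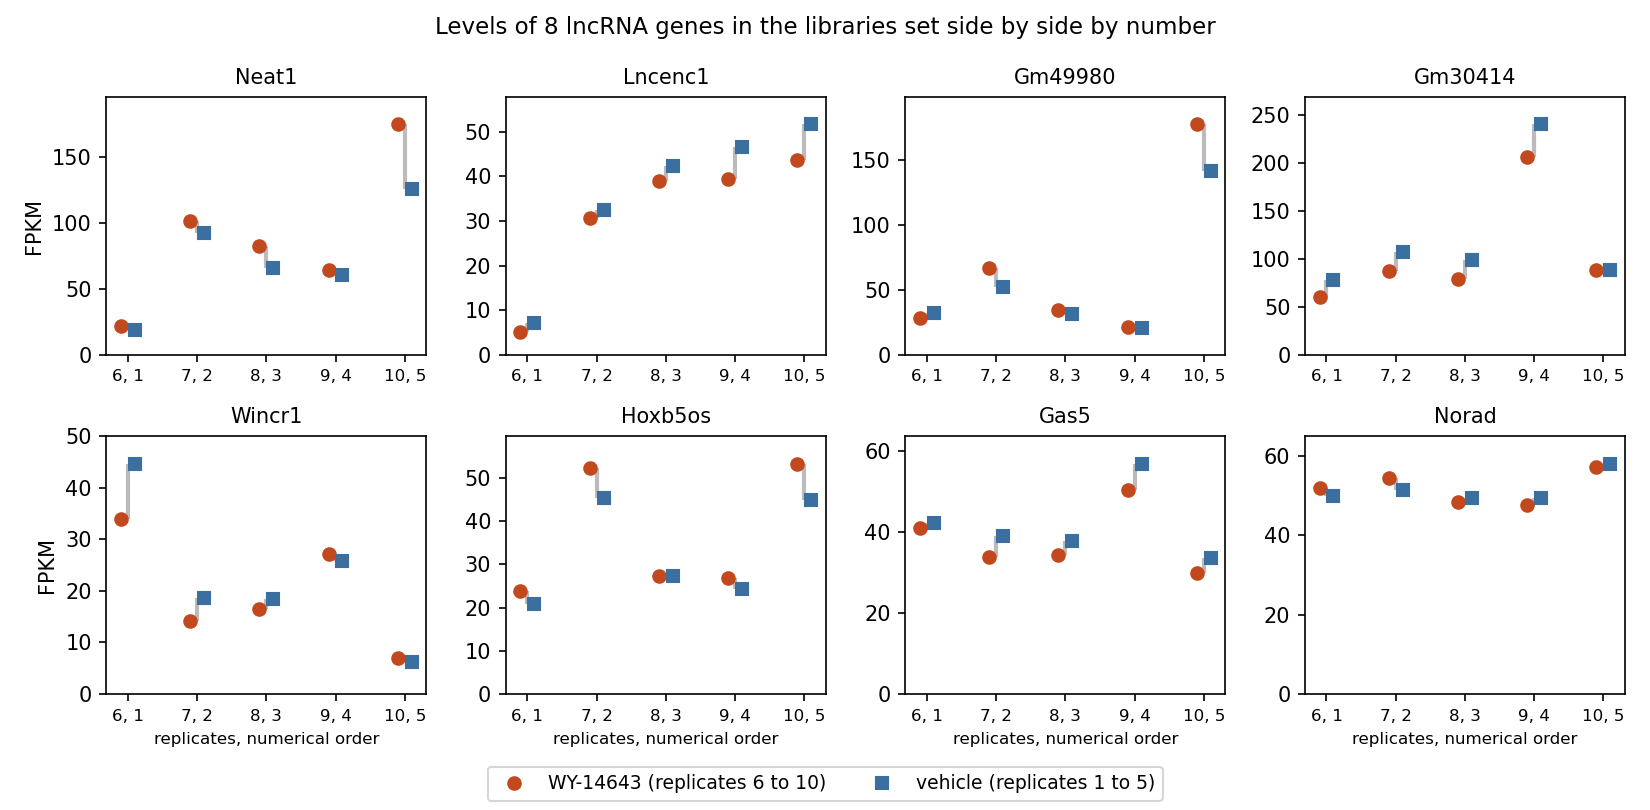
FPKM of 8 lncRNA genes in the WY-14643 library (circle, left) and the vehicle library (square, right) of each numbered pair; each axis starts at 0, the grey line joins a pair, and the pairs come from the numerical order of the libraries, not from a label. Members of a pair mostly stand close together while pairs differ, by 7.79-fold for Lncenc1 and by 1.19-fold for Norad. Some pairs stand apart, such as WY-14643 replicate 10 and vehicle replicate 5 of Neat1, at 175 and 125 FPKM. The 8 genes were picked by hand as examples.

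Hosts of small nucleolar RNAs formed the best-defined class among the members. None of the 17 passed in limma without pairs, in limma with pairs or in voom with pairs. Those fits called 0%, 0.316% and 1.76% of all genes tested, so a count of 0 says little about these hosts. They are Gas5, AI506816, 2410006H16Rik, 1110038B12Rik, Zfas1, Snhg1, Snhg8, Epb41l4aos, Snhg17, Snhg5, Snhg15, ENSMUSG00000120369, Snhg6, Snhg20, Rab26os, Snhg12 and Snhg4, each of which wholly holds at least 1 snoRNA gene on its strand in the deposited annotation. The levels of the hosts summed to 216 ± 27.3 FPKM in WY-14643 libraries and 227 ± 32.7 FPKM in vehicle libraries (SD, n = 5 each). The log2 fold change was positive in 5 hosts and negative in 12, with a median of -0.033, beside -0.0061 for all 13607 genes tested. Host genes varied less than the members at large, with a median SD within groups of 0.283, but more than coding genes, at 0.213. Hosts also had more reads, with a median of 412 per library against 184 for all members. How far counting error adds to this difference was not tested. Within the hosts lie 48 snoRNA genes, of which 47 were listed at 0 in all libraries, and whether that lies in the RNA captured or in how reads were assigned to overlapping genes was not tested. Of 22 listed snoRNA host lncRNA genes in the table, members or not, 16 were tested and 0 passed in limma with or without pairs, with a median of -0.034; Dancr at 2.59 FPKM and Snhg16 at 2.56 FPKM fell short of the members' threshold, and Snhg9 was listed at 0. A second entry named Snhg4 in the table has a coding biotype and is no member.

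Gas5 (ENSMUSG00000053332; chromosome 1, 160861992 to 160866116, plus strand), the growth-arrest-specific host whose spliced RNA is a known substrate of nonsense-mediated decay, had 41.2, 33.9, 34.3, 50.6 and 30.03 FPKM in WY-14643 replicates 6 to 10, against 42.2, 39.1, 37.8, 57.02 and 33.7 FPKM in vehicle replicates 1 to 5. It was lower with WY-14643 in each numbered pair and highest in replicates 9 and 4, but the groups overlapped. The log2 fold change was -0.14 ± 0.17 (SE), with an adjusted p of 1.0 in limma and, with the pairs as a block, of 0.271. Zfas1 (chromosome 2, 166904854 to 166907783, plus strand), which starts 81 bases from Znfx1, had 14.6, 14.8, 15.02, 20.1 and 13.99 FPKM with WY-14643 and 15.1, 17.6, 16.1, 24.8 and 14.2 FPKM with vehicle. This host was also lower with WY-14643 in each pair, at -0.14 ± 0.15 on the log2 scale. Snhg1, which holds 8 snoRNA genes and starts 68 bases from the amino acid transporter gene Slc3a2, averaged 14.2 ± 2.07 FPKM with WY-14643 and 13.8 ± 3.48 FPKM with vehicle. AI506816 averaged 33.9 ± 10.97 FPKM with WY-14643 and 37.8 ± 10.1 FPKM with vehicle, and 2410006H16Rik averaged 21.99 ± 10.8 FPKM with WY-14643 and 21.5 ± 10.9 FPKM with vehicle. 2410006H16Rik stood at 39.998 FPKM in WY-14643 replicate 9 and at 39.5 FPKM in vehicle replicate 4, far above its other libraries. Snhg8 averaged 12.8 ± 1.63 FPKM with WY-14643 and 14.1 ± 1.08 FPKM with vehicle. Rab26os, which lies opposite Rab26, had the only host log2 fold change beyond 0.2 in size, 0.48 ± 0.23, with 3.76, 3.67, 4.28, 4.11 and 4.83 FPKM with WY-14643 and 4.84, 2.39, 2.83, 1.10 and 3.23 FPKM with vehicle; vehicle replicate 4 was its lowest library and vehicle replicate 1 its highest. The other 10 hosts had log2 fold changes between -0.12 and 0.14.

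**Figure D4:**
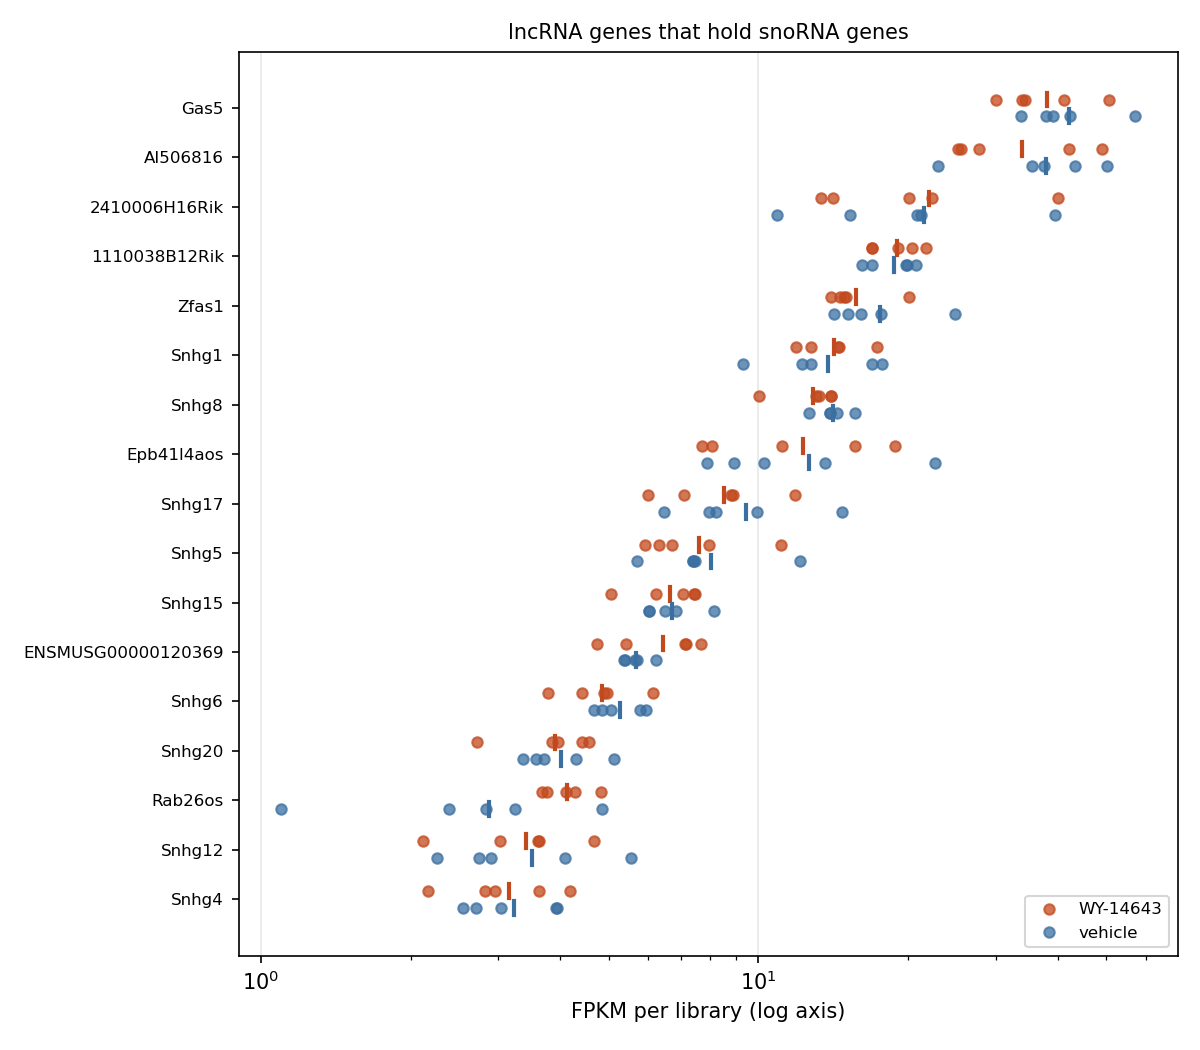
FPKM per library (log axis) of the 17 lncRNA genes that hold snoRNA genes, ordered by mean level; points are libraries, vertical ticks are group means, with WY-14643 above vehicle in each row. The groups overlap in every row, from Gas5 at a mean of 39.97 FPKM to Snhg4 at 3.19 FPKM.

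The start sites of the snoRNA hosts are shown because many such genes begin, like ribosomal protein genes, at a tract of pyrimidines, the 5′ terminal oligopyrimidine (TOP) sequence. RefSeq promoters (GRCm38.p6, an older build than that of the deposited table) were matched by symbol for 69 members, 13 of them hosts. The letters CTTTC were searched within 20 bases either side of the start on the transcript strand, as were the letters CCTTT and the letters CTCTT, and these motifs can overlap each other. At least 1 of them was found in 7 of 13 hosts (53.8%), in 12 of 56 other members (21.4%) and in 14.7% of the 27025 genes of the promoter table. The E-box CACGTG, on both strands over the promoter window, was found in 1 host, in 3 other members and in 8.09% of all genes. The PPAR response element of the DR1 type, searched by its exact letters on both strands, was found in 0 of the 69 members and in 0.0481% of all genes, so these letters are too rare to set members apart. A match describes the letters only. The 50 bases around the start, 25 on each side, follow for the 7 hosts with such letters, at 1 RefSeq start with them per gene, with the pyrimidine run that holds them in capitals and GRCm38.p6 coordinates.
Gas5 (chr1:161035141-161035190, plus strand): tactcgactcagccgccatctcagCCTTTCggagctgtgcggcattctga
Snhg8 (chr3:123508312-123508361, minus strand): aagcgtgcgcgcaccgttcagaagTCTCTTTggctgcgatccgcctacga
Snhg12 (chr4:132308653-132308702, plus strand): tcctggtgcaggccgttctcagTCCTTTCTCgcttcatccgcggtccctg
AI506816 (chr5:23712643-23712692, minus strand): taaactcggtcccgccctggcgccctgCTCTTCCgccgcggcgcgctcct
2410006H16Rik (chr11:62602852-62602901, plus strand): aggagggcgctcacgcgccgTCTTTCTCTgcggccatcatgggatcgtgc
Rab26os (chr17:24528226-24528275, plus strand): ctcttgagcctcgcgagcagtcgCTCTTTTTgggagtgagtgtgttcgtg
1110038B12Rik (chr17:34952447-34952496, minus strand): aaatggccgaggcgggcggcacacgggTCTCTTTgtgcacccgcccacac

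Carriers of microRNA genes numbered 10 among the members. None passed in limma without pairs (0% of all genes tested) or with pairs (0.316%). Voom with pairs (1.76% of all genes tested) called 1 of these carriers, Mir100hg, lower with WY-14643. They are Gm53 with Mir196a-1, Mir22hg with Mir22, Gm49890 with Mir31, Gm13648 with Mir200a, Mir200b and Mir429, Gm15884 with Mir200c and Mir141, Mir17hg with its 6 hairpins, Mir100hg with Mirlet7a-2, Mir100 and Mir125b-1, Gm28119 with Mir125b-1 as well, and the snoRNA hosts Snhg20 and Snhg4. A host's FPKM is the level of the polyadenylated precursor, not of the mature microRNA, which was not measured. The mature sequences, from RefSeq (GRCm38.p6), follow for 1 arm of each hairpin of the 5 hosts that carry families known in intestinal epithelium or in proliferation, with the seed (bases 2 to 8) in capitals, since the seed largely decides which messages a microRNA recognises. Within them 4 seeds are shared: by miR-200b-3p, miR-200c-3p and miR-429-3p, by miR-200a-3p and miR-141-3p, by miR-17-5p and miR-20a-5p, and by miR-19a-3p and miR-19b-3p.
mmu-miR-200b-3p: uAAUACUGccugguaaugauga
mmu-miR-200c-3p: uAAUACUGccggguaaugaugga
mmu-miR-429-3p: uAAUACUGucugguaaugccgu
mmu-miR-200a-3p: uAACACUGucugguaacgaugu
mmu-miR-141-3p: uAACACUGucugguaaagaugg
mmu-miR-17-5p: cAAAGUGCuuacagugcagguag
mmu-miR-20a-5p: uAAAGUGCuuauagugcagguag
mmu-miR-18a-5p: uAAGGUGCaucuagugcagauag
mmu-miR-19a-3p: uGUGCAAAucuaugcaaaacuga
mmu-miR-19b-3p: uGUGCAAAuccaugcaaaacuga
mmu-miR-92a-3p: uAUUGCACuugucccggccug
mmu-miR-31-5p: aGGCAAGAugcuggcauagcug
mmu-miR-196a-5p: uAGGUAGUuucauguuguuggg

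Reads were assigned to the host genes at both loci of the miR-200 family, which sustains epithelial character by repressing Zeb1 and Zeb2. Gm15884 overlaps Phb2 on the other strand, at 44.6 FPKM, and Gm13648 overlaps Ttll10 on the same strand, at 2.31 FPKM, so these reads may belong in part to the coding genes. Gm13648 (chromosome 4, 156137172 to 156144259, minus strand), over the cluster of miR-200a, miR-200b and miR-429, had 9.14, 9.81, 8.08, 5.82 and 9.50 FPKM in WY-14643 replicates 6 to 10, against 9.20, 7.49, 6.76, 6.61 and 6.89 FPKM in vehicle replicates 1 to 5. Gm15884 (chromosome 6, 124692536 to 124695794, minus strand), over miR-200c and miR-141, had 3.04, 4.26, 2.24, 2.62 and 5.31 FPKM with WY-14643 and 1.73, 3.16, 1.92, 2.56 and 3.70 FPKM with vehicle. Gm15884 was higher with WY-14643 in each pair, at a log2 fold change of 0.30 ± 0.21, yet the groups overlapped and the adjusted p was 1.0 in limma without pairs and 0.280 with them. Zeb1 and Zeb2, the targets named, averaged 0.013 and 0.00087 FPKM over the 10 libraries. Whether the miR-200 family has a part in these low levels was not tested. Mir17hg, the host of the proliferation-linked miR-17 cluster, averaged 6.24 ± 1.21 FPKM with WY-14643 and 7.23 ± 2.04 FPKM with vehicle and was lower with WY-14643 in 4 of 5 pairs. Gm49890, over miR-31, a microRNA known in intestinal regeneration, averaged 18.5 ± 3.99 FPKM with WY-14643 and 18.5 ± 7.06 FPKM with vehicle. Mir22hg averaged 18.7 ± 2.57 FPKM with WY-14643 and 18.4 ± 3.59 FPKM with vehicle. Gm53 averaged 26.6 ± 12.4 FPKM with WY-14643 and 24.7 ± 11.2 FPKM with vehicle, with 98.6% of its sum of squares between pairs. Mir100hg had 6.01, 3.75, 3.98, 6.001 and 1.35 FPKM in WY-14643 replicates 6 to 10, against 7.64, 5.17, 4.62, 7.16 and 1.59 FPKM in vehicle replicates 1 to 5. It was lower with WY-14643 in each pair and lowest in replicates 10 and 5, at a log2 fold change of -0.24 ± 0.37 without pairs (adjusted p of 1.0 in limma). With pairs as a block it was -0.24 ± 0.055 in limma (adjusted p = 0.161), and voom with pairs gave -0.30 ± 0.053 and called it lower (adjusted p = 0.00777). Gm28119, a short gene inside the Mir100hg span on the same strand, averaged 16.3 ± 8.53 FPKM with WY-14643 and 19.5 ± 10.7 FPKM with vehicle, and its reads cannot be told from those of the longer gene where they overlap.

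By position, 95 members overlapped no coding gene, 56 overlapped one on the other strand and 22 overlapped one on the same strand. The deposited labels do not say whether the libraries kept the strand, so reads of those overlapping genes may be shared with their partners. Members with a coding gene starting within 2000 bases on the other strand numbered 40, at a median distance of 198 bases. In 31 of them the coding partner had the higher mean level. ENSMUSG00000121260, 85 bases from the ectonucleotidase gene Entpd8, averaged 14.2 FPKM and Entpd8 37.5 FPKM. Gm19610, 151 bases from Ereg, the gene of the growth factor epiregulin, averaged 12.9 FPKM, and Ereg 17.9 FPKM. Gas5 is the reverse case, with 39.97 FPKM beside 1.41 FPKM for Zbtb37, as are Zfas1, with 16.6 FPKM beside 6.03 FPKM for Znfx1, and ENSMUSG00000120992, with 137 FPKM beside 39.4 FPKM for Vars. Log2 fold changes of member and partner had the same sign in 22 of the 39 pairs whose partner was tested.

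The HOX cluster on chromosome 11, whose genes mark position along the gut, held a pair of members. Hoxb5os (chromosome 11, 96181849 to 96197736, minus strand), which overlaps Hoxb5 and Hoxb6 on the other strand, had 23.9, 52.3, 27.2, 26.8 and 53.4 FPKM in WY-14643 replicates 6 to 10, against 20.9, 45.4, 27.3, 24.4 and 44.99 FPKM in vehicle replicates 1 to 5. It was high in replicates 7, 10, 2 and 5 and lower in the other 6. Gm53, in the same cluster, had 13.96, 43.1, 21.01, 18.8 and 35.99 FPKM with WY-14643 and 12.5, 41.3, 20.02, 19.4 and 30.2 FPKM with vehicle, with the same libraries high. Hoxb6 and Hoxb5 had their 4 highest values in those libraries as well: Hoxb6 had 40.02, 104, 57.9, 44.6 and 93.7 FPKM with WY-14643 and 45.8, 95.3, 54.8, 41.3 and 78.6 FPKM with vehicle, and Hoxb5 had 5.65, 15.96, 8.35, 6.37 and 13.5 FPKM with WY-14643 and 5.70, 15.1, 7.20, 5.26 and 13.7 FPKM with vehicle. Since strand may not have been kept, reads of Hoxb5os and of the coding genes opposite it cannot be told apart. Of 10 listed HOX-cluster lncRNA genes in the table, 2 reached the level tested, Hoxb5os and Hoxb3os, and Haglr, Hotair, Hottip and Hoxa11os were listed at 0 in every library.

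WY-14643 against vehicle is the only comparison of the study, and without pairs it returned no call for these genes. In limma on log2(FPKM + 1), with Benjamini-Hochberg adjustment over 13607 genes, 0 of 172 members passed 0.05, the lowest adjusted p was 1.0, and the background was 0% of all genes. All 172 members lay above the filter of 0.5 FPKM by the rule that chose them. An unadjusted p under 0.05 was found for 2 members (1.16%) and for 1.51% of all genes. The fit without pairs counts differences between the numbered pairs as error. Its lack of calls therefore does not show that the treatment had no effect. The median log2 fold change was 0.015 for members and -0.0061 for all genes tested, and the members ranged from -0.50 to 0.49. The log2 fold change was positive in 98 members and negative in 74. In no member did the 5 WY-14643 libraries all lie above, or all below, the 5 vehicle libraries, against 0.243% of all genes above and 0.11% below. Only Gm40975 had group means more than 1.5-fold apart, at 2.48 ± 1.90 FPKM with WY-14643 and 4.02 ± 2.77 FPKM with vehicle, with SDs as wide as the difference.

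**Figure D5:**
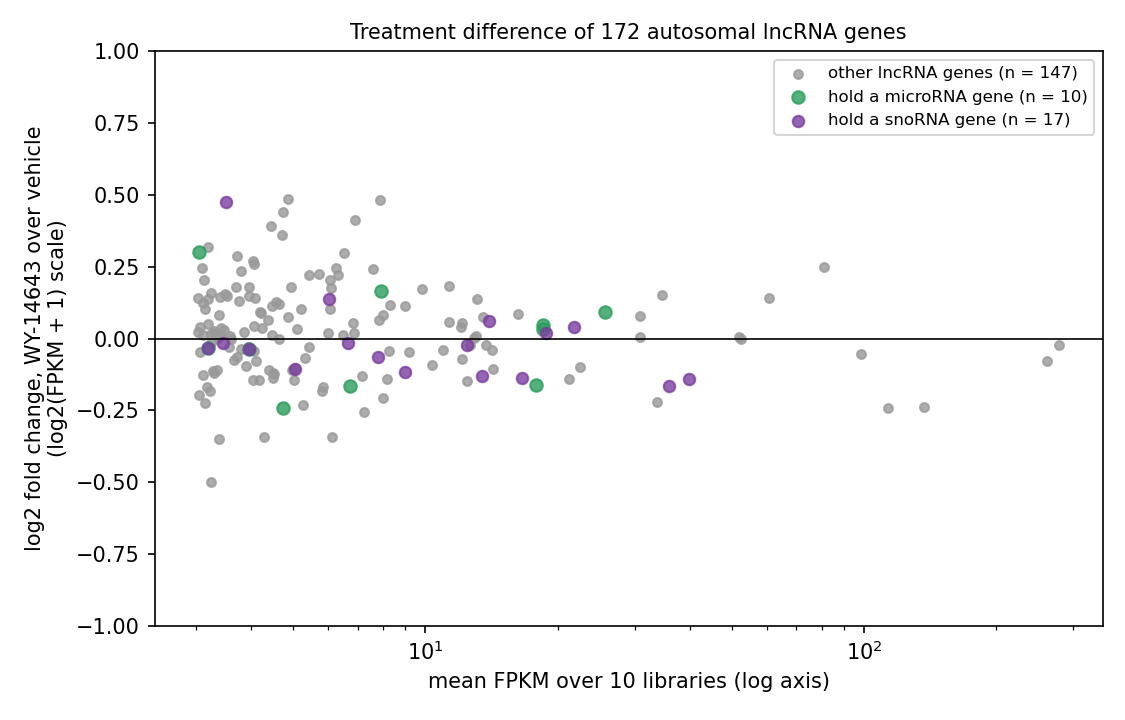
Log2 fold change of WY-14643 over vehicle on the log2(FPKM + 1) scale against mean FPKM (log axis) for the 172 autosomal lncRNA genes, with the 17 snoRNA hosts and the 10 microRNA hosts coloured (Snhg20 and Snhg4 are both). All points lie between -0.50 and 0.49, the 15 genes above 30 FPKM lie between -0.24 and 0.25, and no gene passed in limma without pairs.

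With the numbered pairs entered as a block, limma passed 43 of 13607 genes (0.316%) and again 0 members, whose lowest adjusted p was 0.109, that of Gm20544. In that fit an unadjusted p under 0.05 was found for 27 members (15.7%) and for 10.6% of all genes. The WY-14643 library was the higher in all 5 pairs for 12 members (6.98%; 5.63% of all genes) and the lower in all 5 for 7 members (4.07%; 6.09% of all genes), shares near the background. A fit chosen after these results were seen, voom on recovered reads with pairs as a block, called 5 members beside 1.76% of all genes. Neat1 (adjusted p = 0.0210), D430001F17Rik (0.0373) and AW112010 (0.0435) were called higher with WY-14643, and Mir100hg (0.00777) and Gm20544 (0.0450) lower. D430001F17Rik, which starts opposite the ATP synthase gene Atp5o and overlaps it, had 3.33, 9.59, 4.10, 4.98 and 6.79 FPKM in WY-14643 replicates 6 to 10, against 1.41, 7.34, 3.45, 3.49 and 4.04 FPKM in vehicle replicates 1 to 5. It was higher with WY-14643 in each pair, and the groups overlapped. AW112010, known from infected and inflamed mouse cells, had 5.93, 11.7, 5.53, 7.94 and 9.49 FPKM in WY-14643 replicates 6 to 10, against 6.16, 7.11, 4.43, 4.98 and 5.88 FPKM in vehicle replicates 1 to 5. The WY-14643 library was the higher in 4 of 5 pairs, with overlap of the groups. Gm20544, whose start lies opposite that of Smad7, an inhibitor of TGF-β signalling, had 2.49, 4.13, 3.66, 5.16 and 2.77 FPKM in WY-14643 replicates 6 to 10, against 3.31, 6.24, 4.12, 6.73 and 4.14 FPKM in vehicle replicates 1 to 5, and was lower in each pair.

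The smallest unadjusted p among members belonged to Gm17025 (chromosome 15, 81299761 to 81303389, minus strand), which lies opposite Xpnpep3. It had 4.13, 5.75, 4.24, 6.01 and 7.82 FPKM in WY-14643 replicates 6 to 10, against 5.04, 3.32, 2.37, 3.72 and 4.82 FPKM in vehicle replicates 1 to 5, a log2 fold change of 0.44 ± 0.19; the WY-14643 library was the higher in 4 of 5 pairs, and replicates 6 and 1 went the other way. With pairs as a block and without replicates 6 and 1, Gm17025 passed at an adjusted p of 0.0302 in limma. Gm17066 (chromosome 14, 105346826 to 105352112, minus strand), within Rbm26 on the same strand, had 4.92, 7.12, 3.93, 4.29 and 6.32 FPKM with WY-14643 and 8.92, 6.13, 6.64, 6.55 and 6.37 FPKM with vehicle, a log2 fold change of -0.34 ± 0.15. Vehicle replicate 1 was its highest library and WY-14643 replicate 7 the next. After these, the next on the higher side were AW112010, Rab26os, 4930557K07Rik, Gm4673 and Gm16046, with log2 fold changes of 0.14 to 0.48, and on the lower side Gm20544, Gm6712, Snhg8, 1810008I18Rik and Gm15777, with -0.34 to -0.13. None of these passed the adjusted threshold in limma with or without pairs on all 10 libraries; AW112010 and Gm20544 are among the 5 that voom with pairs called.

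Genes that handle these RNAs did not pass in limma without pairs (0% of all genes tested) or with pairs (0.316%). At such shares, 0 calls in lists of this size say little about the genes. Their results in voom with pairs are not given here. Over all genes tested, 7198 of 13607 had a negative log2 fold change. Of 18 proteins of the snoRNP core and its assembly, 0 passed, 14 had a negative log2 fold change and the median was -0.10. Fbl, the fibrillarin that methylates ribosomal RNA, averaged 26.7 ± 2.77 FPKM with WY-14643 and 29.6 ± 4.16 FPKM with vehicle. The 39 protein-coding snoRNA hosts had a median of -0.041 with 0 called. Of 16 paraspeckle proteins, the partners of Neat1, 15 had a negative log2 fold change, with a median of -0.062 and 0 called. Among them Sfpq averaged 69.3 ± 7.47 FPKM with WY-14643 and 75.04 ± 10.6 FPKM with vehicle. The 17 factors of nonsense-mediated decay had a median of -0.055 and 0 called. Gm15441, the PPARα-responsive lncRNA gene of mouse liver, is no member: it had 0.156, 0.740, 0.655, 0.447 and 0.686 FPKM in WY-14643 replicates 6 to 10, against 0.203, 0.718, 0.589, 0.725 and 0.463 FPKM in vehicle replicates 1 to 5, at a log2 fold change of -0.0057. Txnip, opposite it, had 78.4, 201, 144, 92.7 and 118 FPKM with WY-14643 and 43.01, 61.9, 98.6, 73.9 and 81.3 FPKM with vehicle. It was higher with WY-14643 in each pair, at a log2 fold change of 0.78, and the groups overlapped. The adjusted p was 1.0 in limma without pairs, and results with pairs are not given here for Txnip.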

How the data were processed

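Libraries of polyadenylated RNA from mouse colon organoids, 5 with WY-14643 and 5 with vehicle, were analysed from the FPKM values that the authors deposited. The tools named in the submitters' processing notes are featureCounts 1.5.0-p3 and HISAT2 2.0.5 on build mm39. How strand and multiply matching reads were handled, and which annotation release was taken, is not given in the sources used here. FPKM multiplied by gene length gave whole reads (tolerance 0.01), which were used for depth and for voom only. Genes with a mean of at least 0.5 FPKM (13607) were tested by limma 3.58.1 in R 4.3.3 on log2(FPKM + 1). The fit used mean-variance trend and robust priors, Benjamini-Hochberg adjustment, a threshold of 0.05 and no covariate. It was also run on simulated data, but these held no differences between pairs and so do not show how it performs on these libraries. The members and gene lists were chosen with earlier results of these data known.

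Groups come from the treatment labels. The labels share no replicate number between groups, so pairs were not part of the main design. Numbered pairs rest on numerical order and on correlations of deviations from the group means over all genes tested (0.423 to 0.782 when matched, at most 0.0602 otherwise); the same fit with pairs as a block was an alternative. Others were a pseudocount of 0.1, no filter, rescaled totals, voom, library quality weights, a member threshold of 1 FPKM and leaving out each library. Further alternatives, voom with pairs and leaving out each pair, were added after seeing the data.

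Named were the 15 most abundant members, every snoRNA and microRNA host, list members, the 6 smallest p per direction, the genes at the threshold and the 6 most abundant members starting opposite a coding gene; the genes of 5-fold pair differences and those called by voom with pairs were added after their values were seen. Host genes and distances come from the table's coordinates. Near copies were sought with blastn 2.17.0 in GENCODE M21 transcripts. Of the 141 members with a transcript there, 57 match one of another gene at 95% identity over 100 bases or more. Matches to genes at the same place, such as Snord22 within Snhg1, were not left out. The 57 are therefore no count of copies elsewhere in the genome. In 10 members the match covers at least 50% of the transcript. Promoter and microRNA sequences are RefSeq's. Plots used Python 3.11.15 and matplotlib 3.10.9.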

Additional observations from a re-analysis of the deposited data

Results flagged for a closer look

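Among the 54 named members, each group of 5 libraries was examined for a highest or lowest library whose gap to the next, divided by the group's range, passes 0.71. Of 108 groups examined 13 passed. Chance passes about 1 in 20 where values are normally spread and groups are independent. The groups here share the numbered pairs, and whether FPKM was normally spread was not tested. No excess over chance can therefore be read from the 13. In both groups of Gm30414 the library of 1 numbered pair stood apart, WY-14643 replicate 9 with a ratio of 0.803 and vehicle replicate 4 with 0.818. The same held for Gm49980, with 0.710 for WY-14643 replicate 10 and 0.737 for vehicle replicate 5. In WY-14643 libraries, ENSMUSG00000120992 was high in replicate 6 (0.779), Zfas1 in replicate 9 (0.829) and Oip5os1 in replicate 7 (0.875), while Snhg8 was low in replicate 6 (0.758). In vehicle libraries, Norad was high in replicate 5 (0.760), Mir22hg in replicate 4 (0.755), and Gm49890, Snhg5 and Gm17066 in replicate 1, with 0.753, 0.726 and 0.815.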

How the results depend on the processing

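Without pairs 0 of 13607 genes passed, against 43 with the numbered pairs as a block and 21 with library quality weights; in the fits that left out 1 library, or 1 pair with pairs as a block, the count ran from 0 to 33. With voom on recovered reads and pairs as a block, which was chosen after seeing the data, 239 genes passed. For the lncRNA genes the count was 0, and it was 5 with that voom fit; it ran from 0 to 1 when 1 library or pair was left out, the 1 being Gm17025 without replicates 6 and 1. The adjusted p of the 5 genes called by voom with pairs reached 1.0 under other alternatives. The median log2 fold changes of all members and of the snoRNA hosts moved by less than the spread between libraries under each alternative. Of 1188 log2 fold changes (54 named members under 22 alternatives), 1181 moved by less than the SD within groups, 2 moved by more, both with quality weights (4930557K07Rik to 0.74 and Gm6712 to 0.0032), and 5 passed the threshold. A total of 145 values, of 34 members, took the other sign, all of them not called. The causes of these changes were not tested. Short members rest on few reads, 13.4 per library on average in the shallowest.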
